A study of Mus musculus with 12 samples.

Results

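Membrane carriers that move drugs, bile pigments and organic anions into and out of hepatocytes were followed in mouse liver, 9 genes in all: the uptake carriers Slc22a7, Slco2b1, Slco1a1, Slco1a4 and Slco1b2, and the efflux pumps Abcc2, Abcb1a, Abcc3 and Abcc4. The 9 genes were chosen by name for their role in hepatic transport, out of 19937 genes with a probe set that carries their symbol alone, of which 17904 were tested. Each of the 9 had 1 such probe set, and each exceeded the 20th percentile of its array (2.17 to 2.23) on all 12 arrays, so none entered the test through 1 group alone. The study asked how the liver of wild-type mice and of mice without the deacetylase Hdac6 responds to the synthetic glucocorticoid dexamethasone.

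All animals were male. The wild-type mice were of strain C57Bl/6 and the knockout mice are labelled C57Bl/6 HDAC6 Y/-, a notation for males whose only copy of this X-linked gene is lost. Mice of either genotype were injected intraperitoneally with vehicle or with dexamethasone at 1 mg/kg over 3 weeks, which gave 4 groups of 3 different animals, a vehicle and a dexamethasone group of each genotype. Age, the number of injections, the interval between the last injection and tissue collection, the way the allele was made and any kinship between the knockout and wild-type mice are not stated by the labels. Total RNA of frozen liver was hybridised to Affymetrix whole-transcript arrays, 1 array per animal. Values are the deposited log2 intensities: adding 1 multiplies an intensity by 2, and a level belongs to its own probe set only. Levels of different genes are therefore not set against each other.

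Hepatocytes take up anions and drugs from sinusoidal blood through organic anion transporting polypeptides, encoded by the Slco genes, and through organic anion carriers of the Slc22 family. After metabolism, ATP-driven pumps of the Abcb and Abcc families export the products, either across the canalicular membrane into bile or back across the basolateral membrane into blood. In mouse liver, nuclear receptors such as PXR and CAR (encoded by Nr1i2 and Nr1i3) and the oxidant-responsive factor NRF2 (encoded by Nfe2l2) are known regulators of many of these genes, and the glucocorticoid receptor is known to act upstream of PXR and CAR.

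Hdac6 matched the labels: it lay between 5.86 and 6.43 on the 6 wild-type arrays and between 3.62 and 4.40 on the 6 knockout arrays, a log2 change of -2.08 ± 0.14 (SE) under vehicle and -2.23 ± 0.14 under dexamethasone. Which exons are deleted and which the probes cover is not stated by the labels. The mean of 11 hepatocyte markers was 12.35 to 12.50 on every array. Transcripts of the exocrine pancreas stood out on 4 arrays (wild-type dexamethasone 3, knockout vehicle 3 and, of the wild-type vehicle group, arrays 1 and 2), where the mean of 14 pancreas markers was 7.96 to 9.99 against 3.08 to 3.51 on the other 8, and all 14 markers were higher. For the 9 transporters, changes that passed their test or turned sign are given both ways. Most other changes of the 9 are given for all arrays only, and none of these turned sign without those 4. Leaving them out keeps a lone array of wild-type vehicle, taken to vary as much as the other groups do. Array medians ran from 3.132 to 3.239.

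Promoter sequence was at hand from RefSeq (GRCm38.p6) for 7 of the 9 genes, in 10 windows of 250 bases before to 50 bases after an annotated start. Slco2b1, which was lower under dexamethasone, has 3 annotated starts, and its windows are shown because they differ in the short motifs they hold. The windows lie on the minus strand at chr7:99711291-99711590, chr7:99706793-99707092 and chr7:99695760-99696059, and all sequences run 5′ to 3′ along the gene. Capitals mark matches on either strand to 4 motifs: TGTTCT of the glucocorticoid receptor, AGTTCA of PXR and CAR, TGACNNNGC of NRF2 and GTTAAT of the hepatocyte factor HNF1.
Slco2b1 start A: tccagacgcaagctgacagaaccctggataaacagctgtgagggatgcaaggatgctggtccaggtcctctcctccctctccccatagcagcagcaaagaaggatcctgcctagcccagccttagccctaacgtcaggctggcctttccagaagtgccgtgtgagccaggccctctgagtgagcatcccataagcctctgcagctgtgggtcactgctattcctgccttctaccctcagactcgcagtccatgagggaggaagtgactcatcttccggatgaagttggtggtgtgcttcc
Slco2b1 start B: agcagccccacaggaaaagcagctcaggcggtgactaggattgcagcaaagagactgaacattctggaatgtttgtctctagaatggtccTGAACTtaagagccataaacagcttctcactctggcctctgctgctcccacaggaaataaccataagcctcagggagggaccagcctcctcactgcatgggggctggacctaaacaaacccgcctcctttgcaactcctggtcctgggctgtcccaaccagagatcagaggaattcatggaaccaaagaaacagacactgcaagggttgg
Slco2b1 start C: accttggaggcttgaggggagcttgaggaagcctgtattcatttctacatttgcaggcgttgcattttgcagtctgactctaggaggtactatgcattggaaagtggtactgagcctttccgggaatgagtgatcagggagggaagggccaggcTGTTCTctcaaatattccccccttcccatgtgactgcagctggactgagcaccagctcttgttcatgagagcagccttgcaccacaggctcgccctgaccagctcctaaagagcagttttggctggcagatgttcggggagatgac
Start A has no match to the 4 motifs, start B has AGTTCA on the opposite strand at position -160, and start C has TGTTCT at position -96, counted from the start with its first base as 1 and no position 0. These motifs are short and frequent: of 32851 RefSeq windows of the same length, 19% hold TGTTCT, 14% AGTTCA, 12.4% TGACNNNGC and 7.1% GTTAAT. A match is a description of the letters, and the arrays hold no measurement of binding.

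Slco1b2, Slco1a4 and Slco1a1 stand close together in RefSeq gene order, with the predicted gene Gm5724 between Slco1b2 and Slco1a4. Their levels varied together from animal to animal, as did those of Abcb1a and Abcc3 outside this cluster. Windows of these Slco1 genes are shown side by side. Slco1b2 lies on the plus strand at chr6:141629268-141629567, Slco1a4 on the minus strand at chr6:141856171-141856470 and Slco1a1 on the minus strand at chr6:141946913-141947212. The capitals have the same meaning as for Slco2b1.
Slco1b2: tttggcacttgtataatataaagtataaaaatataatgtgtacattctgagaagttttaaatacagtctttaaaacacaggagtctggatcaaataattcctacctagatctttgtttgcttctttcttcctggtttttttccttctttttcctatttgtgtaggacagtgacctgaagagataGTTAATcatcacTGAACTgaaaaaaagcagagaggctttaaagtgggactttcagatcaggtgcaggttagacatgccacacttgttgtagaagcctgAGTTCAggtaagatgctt
Slco1a4: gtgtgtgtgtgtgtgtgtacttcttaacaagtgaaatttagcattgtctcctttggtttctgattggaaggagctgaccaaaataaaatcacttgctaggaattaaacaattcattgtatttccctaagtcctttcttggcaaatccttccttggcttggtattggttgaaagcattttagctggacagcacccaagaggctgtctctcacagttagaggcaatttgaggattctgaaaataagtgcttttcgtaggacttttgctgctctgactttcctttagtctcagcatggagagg
Slco1a1: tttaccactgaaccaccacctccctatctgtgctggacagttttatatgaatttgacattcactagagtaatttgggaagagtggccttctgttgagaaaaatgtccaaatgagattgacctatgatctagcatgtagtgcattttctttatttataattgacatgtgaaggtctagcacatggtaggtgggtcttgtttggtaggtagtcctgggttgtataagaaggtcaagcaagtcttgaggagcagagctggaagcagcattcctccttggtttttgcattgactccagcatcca
Slco1b2 holds GTTAAT at position -66 and AGTTCA in 2 places, at -54 on the opposite strand and at 33 on the strand shown, and the windows of Slco1a4 and Slco1a1 hold none of the 4 motifs. Among the other windows, Abcc2 has TGACNNNGC at -98, Abcc4 has it at -25 and -23 in its alternative windows and TGTTCT at -123 in the second of them, and Abcb1a has AGTTCA at -176, TGTTCT at 39 and TGACNNNGC at 27.

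Dexamethasone lowered 2 of the 9 transporters in wild-type mice and raised none. Slc22a7, the organic anion carrier OAT2 of the sinusoidal membrane, fell 1.83-fold, and Slco2b1, a broadly expressed organic anion transporting polypeptide, fell 1.29-fold. Over all genes tested, 6.95% were called lower and 4.57% higher in this comparison (limma with Benjamini-Hochberg adjustment over 17904 genes, threshold 0.05). The median log2 change of the 9 was 0.02, against 0.010 over all genes. The wild-type groups did not overlap for 4 of the 9 (Slc22a7, Slco2b1, Abcc3 and Abcc2), against 27% of all genes. In knockout mice none of the 9 passed, where 4.38% of all genes were called higher and 3.92% lower, and the groups overlapped for all 9, against 24.3% of genes without overlap. At an unadjusted p under 0.05 there were 4 transporters in wild type and 1 in the knockout, against 23.6% and 18.5% of all genes. Averaged over genotypes, Abcc3, a basolateral efflux pump, fell 1.27-fold and Slco2b1 1.19-fold. These are 2 of 9 lower and 0 of 9 higher, against 9.94% and 7.29% of all genes, with a median of -0.11 for the 9 and 0.002 for all genes.

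**Figure D1:**
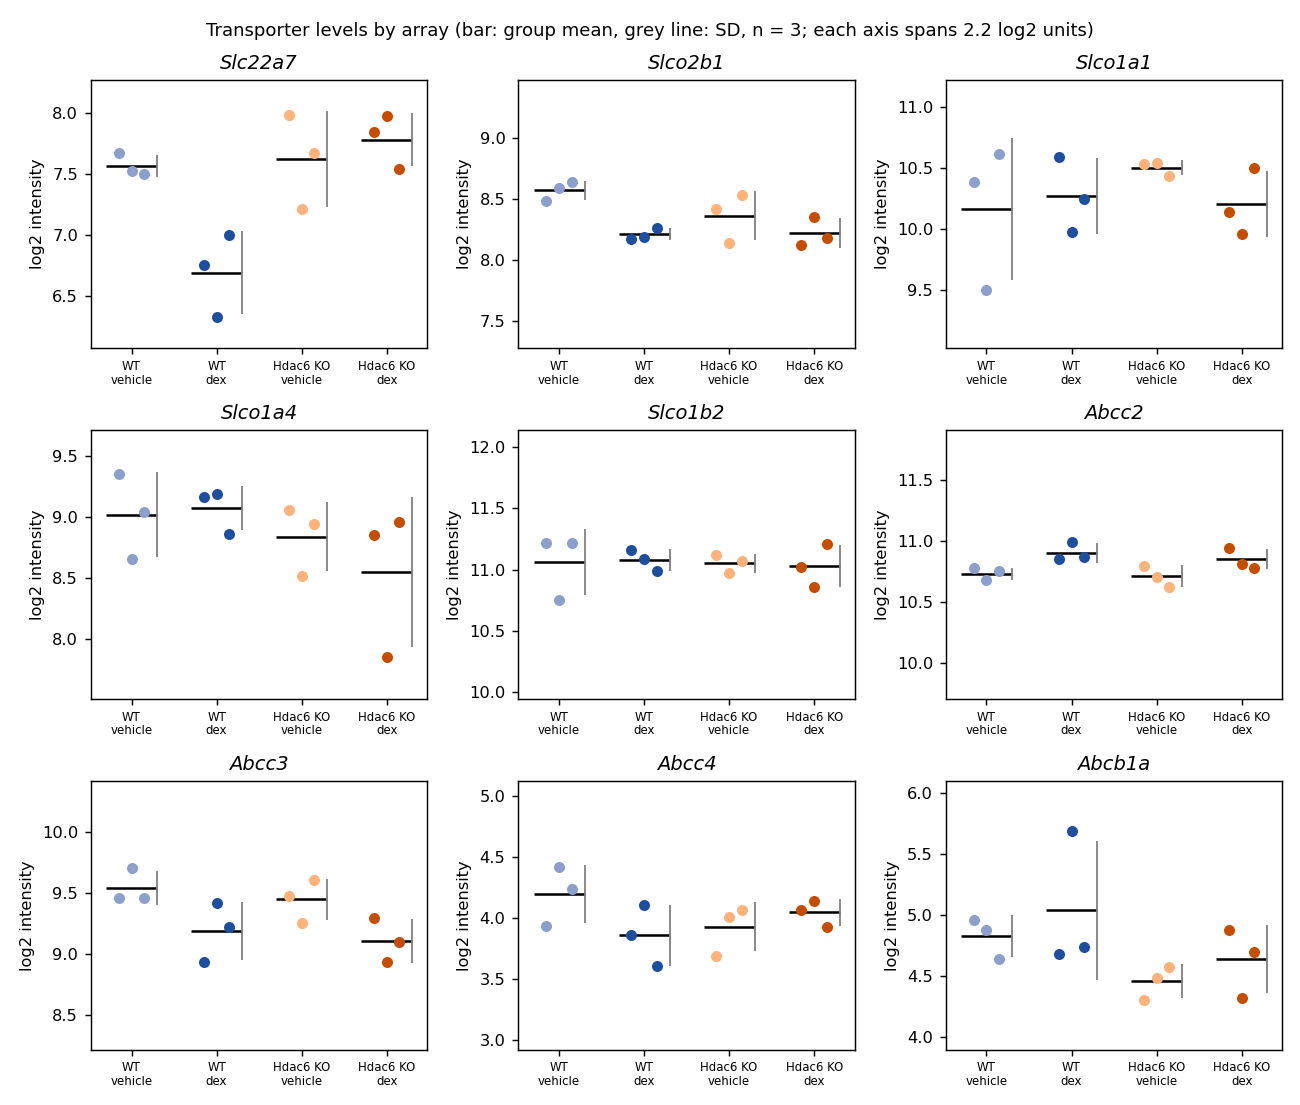
Log2 intensity of the 9 transporters on each of the 12 arrays, 1 panel per gene, by genotype and treatment (points: arrays; black bar: group mean; grey line: SD, n = 3; every vertical axis spans the same range). In wild-type dexamethasone livers, Slc22a7 lies between 6.33 and 7.00, below all other arrays, while the panels of Slco1b2 and Abcc2 are nearly flat.

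Slc22a7 showed the widest span of group means among the 9, 1.09 on the log2 scale. It was at 7.67, 7.52 and 7.50 in wild-type vehicle livers and at 6.75, 6.33 and 7.00 in wild-type dexamethasone livers. In the knockout it was at 7.98, 7.21 and 7.67 with vehicle and at 7.84, 7.97 and 7.54 with dexamethasone. All 3 wild-type dexamethasone arrays lay below the other 9, and the remaining groups overlapped each other. In order of level, the dexamethasone group of wild type came lowest (6.69 ± 0.34, SD), followed by wild type with vehicle (7.56 ± 0.09), knockout with vehicle (7.62 ± 0.39) and knockout with dexamethasone (7.78 ± 0.22). Neighbours among the upper 3 differed by less than their spread.

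The log2 change of Slc22a7 with dexamethasone was -0.87 ± 0.19 (SE, 95% interval -1.29 to -0.45, adjusted p = 0.0106, limma) in wild type and 0.16 ± 0.19 (-0.26 to 0.58, adjusted p = 0.782) in the knockout. The difference of these changes, knockout minus wild type, was 1.03 ± 0.28 (0.43 to 1.62). Its unadjusted p was 0.00248 and its adjusted p 0.596, so it did not pass over all genes, none of which did (0% called, 1109 genes or 6.19% with an unadjusted p under 0.05 in limma). Under dexamethasone the knockout level was above the wild-type level by 1.09 ± 0.19 (0.67 to 1.51), a 2.13-fold difference without overlap between the groups. That comparison had an unadjusted p of 8.47e-05 and an adjusted p of 0.131, where 0.0279% of all genes (5 genes) were called. Averaged over treatments the knockout was higher by 0.58 ± 0.14 (adjusted p = 0.189), and under vehicle by 0.06 ± 0.19 (adjusted p = 0.965). Without the arrays with pancreas transcripts, the difference of the changes was 1.14 and the knockout was above wild type under dexamethasone by 1.24.

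The wild-type decrease of Slc22a7 ranged from -1.02 to -0.69 when each array was left out in turn, and its call was lost without wild-type dexamethasone 2, the lowest array (-0.69, adjusted p = 0.0519). Without the 4 arrays with pancreas transcripts it was -0.95 ± 0.31 (adjusted p = 0.164). Without knockout dexamethasone 3, the difference between genotypes under dexamethasone was 1.21 with an adjusted p of 0.0481, the only array whose removal made that call. Without knockout vehicle 2, the decrease averaged over genotypes changed from -0.35 (adjusted p = 0.105) to -0.46 (adjusted p = 0.0247). Wild-type dexamethasone 2 also had the highest array median of the 12, 3.239, and the highest mean over 8 cholangiocyte markers, 3.56. The part of either in the Slc22a7 values was not tested.

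Markers of Kupffer cells, the resident macrophages of liver, moved in the same groups as Slc22a7. Their mean over 12 genes was 6.70 to 7.59 in wild-type vehicle livers, 5.68 to 6.17 in wild-type dexamethasone livers, 6.53 to 6.91 in knockout vehicle livers and 6.36 to 7.24 in knockout dexamethasone livers. Of the 12 markers, 10 fell with dexamethasone in wild type, against 6.95% of all genes. In the knockout 0 fell, against 3.92% of all genes, and none passed the interaction. None of the 12 was below the low-value limit on all arrays. Periportal hepatocyte markers (mean of 6 genes) were at 10.71 to 10.90, 10.41 to 10.61, 10.69 to 10.89 and 10.57 to 10.87 in the same order of groups, and endothelial markers (12 genes) at 7.01 to 7.22, 6.74 to 6.89, 6.87 to 6.99 and 6.86 to 7.07. Of the 12 endothelial markers, 5 fell and 1 rose in wild type, where Lyve1 went from 5.5 to 7.3. Pericentral hepatocyte, lymphocyte and stellate cell markers had their lowest mean in knockout dexamethasone livers. Group means in the same order were 9.06, 8.91, 9.05 and 8.88 for pericentral markers. They were 2.75, 2.48, 2.59 and 2.41 for lymphocyte and 6.06, 5.79, 5.88 and 5.77 for stellate cell markers. The lymphocyte means stood near the low-value limit (2.17 to 2.23). Of 10 pericentral markers, 2 rose and 1 fell in wild type, against 4.57% and 6.95% of all genes. In the knockout 1 rose and 1 fell, against 4.38% and 3.92%. Lgr5 went from 4.9 to 3.13 in wild type and from 5.06 to 3.46 in the knockout. Glul went from 11.42 to 11.75 and from 11.38 to 11.64, and Slc1a2 from 8.78 to 9.6 and from 8.72 to 9.36. The part of these cells in the transporter results was not tested. In whole-liver RNA, fewer cells of a type and less RNA per cell cannot be told apart.

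Slco2b1 was at 8.48, 8.59 and 8.64 in wild-type vehicle livers and at 8.17, 8.19 and 8.26 in wild-type dexamethasone livers. The knockout gave 8.42, 8.14 and 8.53 with vehicle and 8.12, 8.35 and 8.18 with dexamethasone. The wild-type groups were separate and the knockout groups overlapped through knockout vehicle 2 at 8.14. In order, wild type with dexamethasone (8.21 ± 0.05, SD) and knockout with dexamethasone (8.22 ± 0.12) were alike within their spread, then came knockout with vehicle (8.36 ± 0.20) and wild type with vehicle (8.57 ± 0.08), and no neighbouring pair passed its test.

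The log2 change of Slco2b1 was -0.36 ± 0.11 (SE, 95% interval -0.60 to -0.13, adjusted p = 0.0425) in wild type and -0.15 ± 0.11 (-0.38 to 0.08, adjusted p = 0.558) in the knockout. The difference of 0.22 ± 0.15 (-0.11 to 0.54) did not pass (adjusted p = 0.869). Averaged over genotypes the change was -0.26 ± 0.08 (-0.42 to -0.09, adjusted p = 0.0321). The wild-type call stood close to the threshold. It was lost without any of the 6 wild-type arrays, without knockout vehicle 1 or without knockout dexamethasone 3 (-0.41 to -0.33), and the average call was lost without any of 8 arrays (knockout dexamethasone 1 and 3, knockout vehicle 1 and 3, wild-type dexamethasone 1 and 2, wild-type vehicle 2 and 3). Without the arrays with pancreas transcripts, the change was -0.46 in wild type (adjusted p = 0.204) and -0.26 on average (adjusted p = 0.158).

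The 3 neighbouring carriers Slco1a1, Slco1a4 and Slco1b2, which take up bile acids, steroid conjugates and drugs, did not pass in any comparison. Slco1b2, the mouse counterpart of the human liver-specific OATP1B carriers, was the flattest of the 9: its group means were 11.06 ± 0.27, 11.08 ± 0.09, 11.05 ± 0.08 and 11.03 ± 0.17 (SD) in the order wild type vehicle, wild type dexamethasone, knockout vehicle and knockout dexamethasone, a span of 0.05. The interval of its averaged dexamethasone change ran from -0.20 to 0.19, so changes beyond those bounds lie outside it. Its 12 values lay between 10.75 and 11.22, with the lowest on wild-type vehicle 2.

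Slco1a1, a carrier with higher expression in male than in female mouse liver, was at 10.38, 9.50 and 10.61 in wild-type vehicle livers and at 10.59, 9.97 and 10.24 in wild-type dexamethasone livers. In the knockout it was at 10.53, 10.54 and 10.43 with vehicle and at 10.14, 9.96 and 10.50 with dexamethasone. Wild-type vehicle 2 was the lowest of the 12, and the groups overlapped in every comparison. The log2 change with dexamethasone was 0.11 ± 0.24 (SE, 95% interval -0.41 to 0.63) in wild type and -0.30 ± 0.24 (-0.82 to 0.22) in the knockout. The wild-type estimate turned to -0.22 without wild-type vehicle 2 and to -0.33 without the arrays with pancreas transcripts, and the difference between genotypes under vehicle went from 0.34 to 0.006 without that array. The sign of the wild-type estimate thus changed with 1 animal left out, and did so for 2 of the 12 arrays.

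Slco1a4, a carrier of bile acids, cardiac glycosides and other drugs, was at 9.35, 8.66 and 9.04 in wild-type vehicle livers and at 9.16, 9.19 and 8.86 in wild-type dexamethasone livers. In the knockout it was at 9.06, 8.52 and 8.94 with vehicle and at 8.85, 7.85 and 8.96 with dexamethasone. Knockout dexamethasone 2 was the lowest of the 12, and all groups overlapped. The change with dexamethasone was 0.05 ± 0.26 (SE, 95% interval -0.51 to 0.61) in wild type and -0.29 ± 0.26 (-0.85 to 0.28) in the knockout, which became 0.067 without knockout dexamethasone 2. Under dexamethasone the knockout was lower by 0.52 ± 0.26 on the log2 scale (adjusted p = 0.612), or by 0.16 without that array. The residual SD of Slco1a4 exceeded that of 98.2% of genes, and that of Slco1a1 97.5%.

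Deviations of the arrays from their group means showed how these neighbours varied together. Slco1a1 and Slco1b2 correlated at r = 0.87 (Spearman's rho 0.78) over 12 arrays, and Slco1a4 and Slco1b2 at r = 0.81 (rho 0.72). Without the 2 arrays farthest from the median of the former gene, r was 0.72 and 0.73. Slco1a1 and Slco1a4, which are adjacent, correlated at 0.51 (rho 0.34, and 0.49 without the 2 farthest). Wild-type vehicle 2 was low and knockout dexamethasone 3 high for all 3 genes. These are descriptions over arrays that share their normalisation, given without a p, and the Slco1a genes are close paralogs whose separation by the probes was not examined here.

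**Figure D2:**
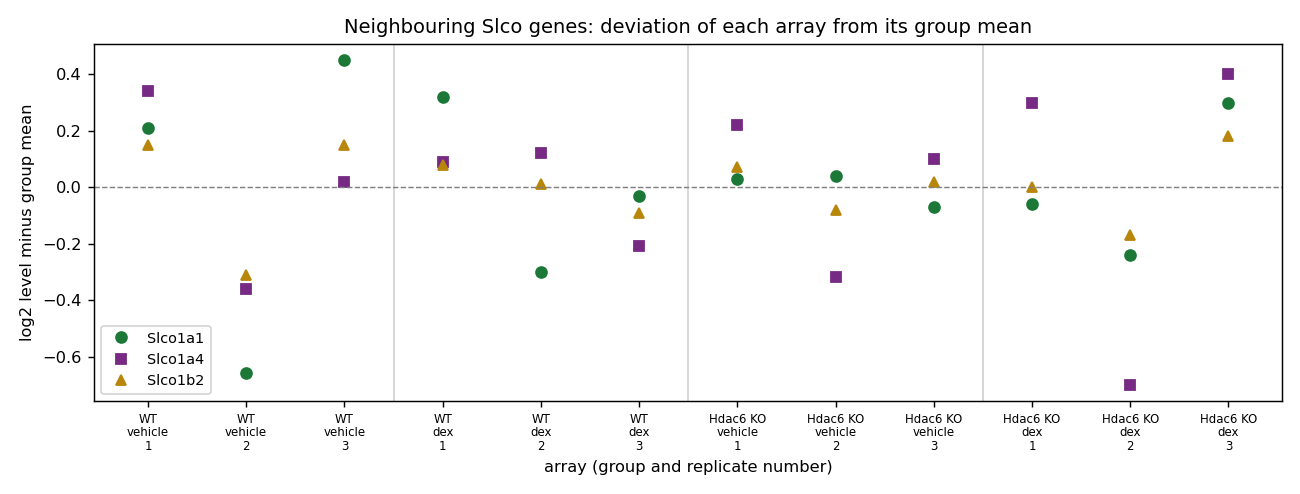
Deviation of each array from its group mean, in log2 units, for Slco1a1 (circles), Slco1a4 (squares) and Slco1b2 (triangles), with the 12 arrays along the horizontal axis in their 4 groups. All 3 symbols lie below 0 on wild-type vehicle 2 and knockout dexamethasone 2 and above 0 on wild-type vehicle 1 and knockout dexamethasone 3.

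Abcc2, the canalicular pump MRP2 that exports bilirubin glucuronides and glutathione conjugates into bile, had small changes and little spread between arrays. It was at 10.78, 10.68 and 10.75 in wild-type vehicle livers and at 10.85, 10.99 and 10.87 in wild-type dexamethasone livers, without overlap. The knockout gave 10.79, 10.70 and 10.62 with vehicle and 10.94, 10.81 and 10.78 with dexamethasone, with 1 dexamethasone array below the highest vehicle array. The log2 change was 0.17 ± 0.09 (SE, 95% interval -0.02 to 0.35, adjusted p = 0.268) in wild type, 0.14 ± 0.09 (-0.05 to 0.33, adjusted p = 0.453) in the knockout and 0.15 ± 0.06 (0.02 to 0.29, adjusted p = 0.112) on average, and did not pass. Its residual SD was above that of only 5.51% of genes.

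Abcb1a encodes a P-glycoprotein, a pump for many lipophilic drugs. It was at 4.96, 4.88 and 4.64 in wild-type vehicle livers and at 4.68, 5.69 and 4.74 in wild-type dexamethasone livers, where dexamethasone 2 was above the other 11 arrays. The knockout gave 4.31, 4.49 and 4.58 with vehicle and 4.88, 4.32 and 4.70 with dexamethasone. The wild-type change of 0.21 ± 0.23 (SE, 95% interval -0.28 to 0.70, adjusted p = 0.65) became -0.12 without wild-type dexamethasone 2, and the average change of 0.19 ± 0.16 became 0.029. That array also had the highest array median, 3.239, and the highest mean over 8 cholangiocyte markers, 3.56 against 3.03 to 3.31 on the other 11 arrays, with 4 of the 8 markers at their highest there. The part of either in this value was not tested.

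Under vehicle, the knockout arrays of Abcb1a all lay below the wild-type arrays, the only one of the 9 genes without overlap in that comparison, against 11.8% of all genes. The log2 change was -0.37 ± 0.23 (95% interval -0.85 to 0.12, adjusted p = 0.772), or -0.24 without the arrays with pancreas transcripts. Averaged over treatments it was -0.38 ± 0.16 (-0.73 to -0.04, adjusted p = 0.438), or -0.22 without wild-type dexamethasone 2. Abcb1a has a close paralog next to it, Abcb1b, and whether the probes separate the pair was not examined here.

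Abcc3, the basolateral pump MRP3 that returns glucuronides and bile acids to blood, fell on average over genotypes. It was at 9.46, 9.71 and 9.46 in wild-type vehicle livers and at 8.94, 9.42 and 9.22 in wild-type dexamethasone livers, without overlap. In the knockout it was at 9.48, 9.26 and 9.61 with vehicle and at 9.30, 8.94 and 9.10 with dexamethasone, with an overlap of 9.26 and 9.30. The log2 change was -0.35 ± 0.14 (SE, adjusted p = 0.137) in wild type and -0.33 ± 0.14 (adjusted p = 0.206) in the knockout, and the difference of 0.02 ± 0.20 had an interval of -0.41 to 0.45. The average of -0.34 ± 0.10 (95% interval -0.56 to -0.13) passed with an adjusted p of 0.028. That call was lost without any of 6 arrays (wild-type vehicle 2, wild-type dexamethasone 1, knockout vehicle 1 and 3, knockout dexamethasone 2 and 3; adjusted p up to 0.0749). Without the arrays with pancreas transcripts the average was -0.27 (adjusted p = 0.311).

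Abcc4, the basolateral pump MRP4 for cyclic nucleotides, sulfated steroids and bile acids, did not pass in any comparison. It was at 3.94, 4.42 and 4.24 in wild-type vehicle livers and at 3.86, 4.11 and 3.61 in wild-type dexamethasone livers. The knockout gave 3.69, 4.01 and 4.07 with vehicle and 4.07, 4.14 and 3.93 with dexamethasone, and all groups overlapped. The change was -0.34 ± 0.15 (SE, 95% interval -0.67 to -0.01, adjusted p = 0.195) in wild type and 0.12 ± 0.15 (-0.21 to 0.45, adjusted p = 0.793) in the knockout. The difference of 0.46 ± 0.21 (-0.01 to 0.92) had an adjusted p of 0.808. Without the arrays with pancreas transcripts, the wild-type change was -0.25.

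**Figure D3:**
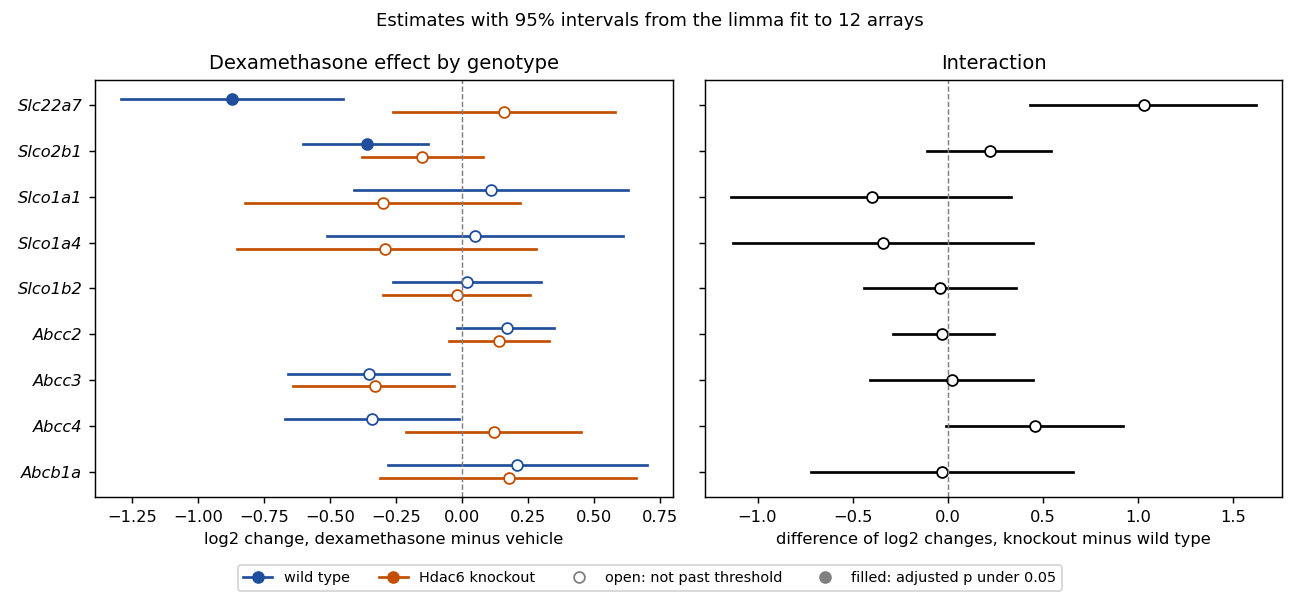
Left, the log2 change with dexamethasone (horizontal axis) for the 9 transporters in wild type (blue) and Hdac6 knockout (orange). Right, the difference of those changes, knockout minus wild type. Points are limma estimates and lines their 95% intervals, with filled points past the adjusted threshold, which only Slc22a7 and Slco2b1 in wild type reached.

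No transporter passed a comparison of genotype. Under vehicle 0 of 9 were called (also 0 at an unadjusted p under 0.05 in limma, against 7.19% of all genes), against 0.101% of all genes, and under dexamethasone 0 of 9, with Slc22a7 at an unadjusted p under 0.05, as were 8.75% of all genes. For the average over treatments, 0 of 9 were called against 0.0503% of all genes, with Slc22a7 and Abcb1a at an unadjusted p under 0.05, as were 10% of all genes. Slc22a7 was the only one of the 9 without overlap under dexamethasone, against 14% of all genes. The median knockout change of the 9 was -0.10 under vehicle and -0.06 under dexamethasone, against 0 and -0.003 over all genes. On simulated data with 17904 genes, limma recovered 93.7% of changes of 1 and 36.4% of changes of 0.5 on the log2 scale in the wild-type dexamethasone comparison, and 75.8% and 0% in the interaction. The simulation had independent noise, few changed genes picked at random and no pancreas transcripts. These rates cover genes of any spread and are not those of the 9. The residual SD of Slc22a7 was above that of 94% of genes and that of Abcb1a 96.7%.

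Other organic anion transporting polypeptides gave 1 increase and 1 decrease among 8 in the averaged dexamethasone effect. Over all genes, 7.29% were called higher and 9.94% lower in that effect. Slco2a1, a prostaglandin carrier, fell by 0.58 ± 0.08 (SE) on the log2 scale from 8.65 to 7.92 in wild type and from 8.78 to 8.35 in the knockout, and passed in both. Slco4c1 was higher by 0.66 ± 0.19, from a mean of 1.94 to 2.60. Its vehicle arrays, at 1.90 to 2.08 in wild type and 1.84 to 2.01 in the knockout, lay below the low-value limit (2.17 to 2.23). It entered the test through its dexamethasone arrays alone, and its increase is not relied on here. Slco3a1 (0.23 ± 0.08) and Slco1a6 (0.16 ± 0.08), a further gene of the Slco1 cluster, did not pass on average. Slco1a6 stood around the low-value limit in every group, from 1.71 (wild-type vehicle) to 2.29 (wild-type dexamethasone). Its change is not relied on here. Within wild type Slco3a1 was called higher, by 0.39 ± 0.12 (adjusted p = 0.0423, limma), and its change in the knockout was 0.06 ± 0.12.

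Among 10 other ABC transporters, 1 rose and 2 fell on average, against 7.29% and 9.94% of all genes. None passed within a genotype. Abcb11, the bile salt export pump of the canalicular membrane, fell by 0.39 ± 0.11 (SE) and Abcc6 by 0.33 ± 0.08 on the log2 scale, whereas Abcc9, a subunit of potassium channels, rose by 0.31 ± 0.09. Abcb1b, the paralog of Abcb1a, changed by 0.27 ± 0.09 without passing (adjusted p = 0.0602).

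Other organic ion and bile salt carriers held the steepest increases among the transporters tested. Of 13 tested, 2 rose and 3 fell on average, against 7.29% and 9.94% of all genes. Slc10a2, a sodium-dependent bile acid carrier known from ileum and bile ducts, rose 3.52-fold, from 6.33 to 8.14 in wild type and from 6.45 to 8.27 in the knockout. Slc22a5, the carnitine carrier OCTN2, rose 1.83-fold, while Slc22a23 fell by 0.44 ± 0.09, Slc47a1, an exporter of organic cations, by 0.28 ± 0.07 and Slc22a27, near the low-value limit and named after its value was seen, by 0.26 ± 0.07 on the log2 scale. Without the arrays with pancreas transcripts, the counts of higher and lower on average were 0 and 1 for the polypeptides, 1 and 0 for the ABC transporters and 1 and 2 for the other carriers.

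**Figure D4:**
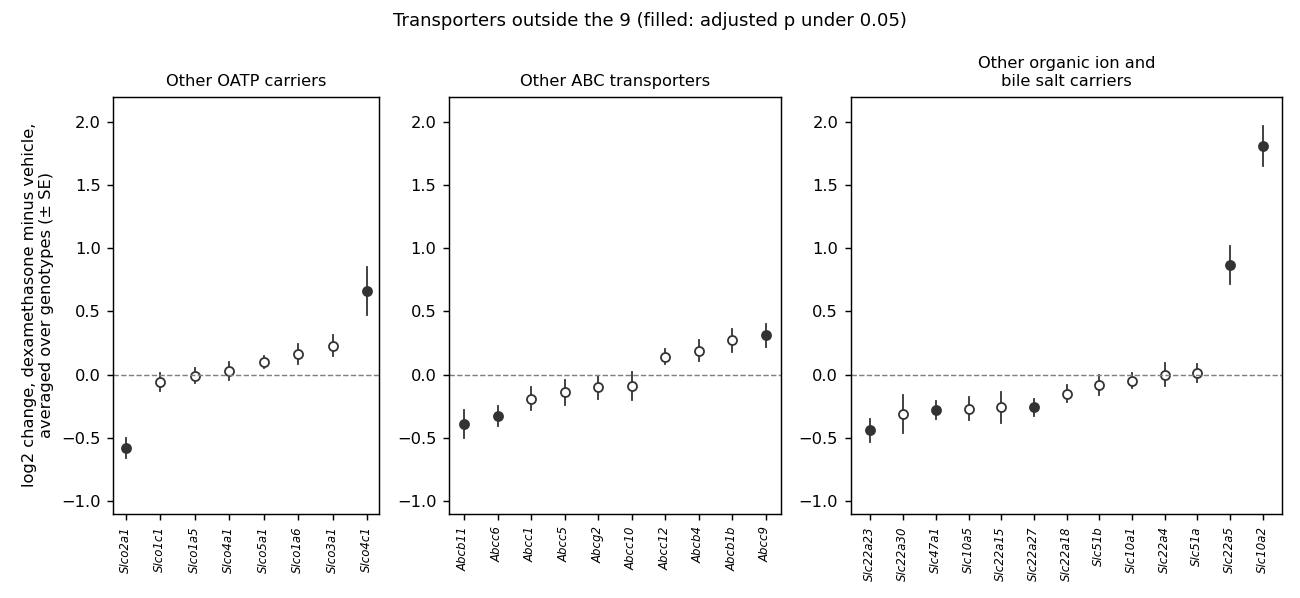
Averaged log2 change with dexamethasone (vertical axis, ± SE) for transporters other than the 9, in 3 families, ordered by change. Filled points passed the adjusted threshold: Slc10a2 at 1.81 and Slc22a5 at 0.87 lie above all others, while Slco2a1 at -0.58 is the lowest.

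Regulators of these carriers moved in either direction. Of 14 tested, 3 rose and 5 fell on average, against 7.29% and 9.94% of all genes. Nr1i2, which encodes PXR, rose by 0.73 ± 0.07 (SE), with Ahr (1.07 ± 0.20) and Hnf4a (0.39 ± 0.08). Nfe2l2, which encodes NRF2, fell by 0.64 ± 0.08 on the log2 scale, Cebpa, a hepatocyte transcription factor, by 0.82 ± 0.13, Nr5a2 by 0.45 ± 0.08, Nr1i3, which encodes CAR, by 0.67 ± 0.13 and Keap1 by 0.32 ± 0.07. Nr1i2, Nfe2l2 and Cebpa passed in both genotypes. Ahr, Hnf4a, Nr1i3 and Keap1 were named after their values were seen, to complete the count.

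Known targets of PXR and CAR did not move as a group: of 9 tested, 3 rose and 4 fell on average. Over all genes, 7.29% were called higher and 9.94% lower. Cyp2b10, the classical CAR target, rose 146-fold (log2 change 7.19 ± 0.41). It went from 4.76 to 11.68 in wild type and from 3.83 to 11.29 in the knockout. Its vehicle arrays spread widely, from 3.02 to 5.8 in wild type and from 2.94 to 4.71 in the knockout. The lowest of them were below the array medians (3.132 to 3.239). Cyp3a13 rose 1.33-fold. Cyp2c55 fell 2.24-fold and Aldh1a1 1.24-fold, and Cyp3a11, a classical PXR target named after its value was seen, was flat (-0.01 ± 0.07). To complete the count, Alas1 rose 3.48-fold without passing in either genotype alone, while Cyp2c37 fell 1.51-fold and Cyp2c29 1.23-fold. These were also named after their values were seen. Of 9 targets of NRF2, 0 rose and 5 fell on average, against the same shares of all genes. Among them were Hmox1 by 0.72 ± 0.16, Srxn1 by 0.33 ± 0.08, Gclm by 0.30 ± 0.08 and Txnrd1 by 0.28 ± 0.06 on the log2 scale. In wild type 0 rose and 3 fell, against 4.57% and 6.95% of all genes. The knockout counts were 0 and 0, against 4.38% and 3.92%. No gene of these lists passed a genotype comparison or the interaction. Without the arrays with pancreas transcripts, the averaged counts of higher and lower were 2 and 4 for the regulators, 2 and 1 for the PXR and CAR targets and 0 and 1 for the NRF2 targets.

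Over the 12 arrays, the genes most similar to Slc22a7 in level were Hnrnpr (r = 0.911), Aatf (0.901) and Axin1 (0.901). For Abcb1a they were Epcam (r = 0.900), Heatr9 (0.899) and Olfr767 (0.899). These are the highest correlations among the genes tested, predicted genes left out, over arrays that share their groups and normalisation, and are given as a description without a p. For Abcb1a, the single high array, wild-type dexamethasone 2, weighs heavily in r. The same array is the lowest of the 12 for Slc22a7. Epcam is 1 of the 8 cholangiocyte markers and was at 3.41 on that array, its highest level.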

How the data were processed

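Liver RNA of 12 mice was measured on 1 array each. The deposited table holds log2 values of 34760 probe sets, from 0.927 to 13.5, and the authors used R 2.10.0 and affy, per the submitters' processing notes. Background correction, normalization and summarization are not given in the sources used here, and the log base was inferred from the range. Of the probe sets, 21640 carried 1 gene symbol. The probe set with the highest mean stood for a gene, kept if above its array's 20th percentile on at least 3 arrays (17904 genes). A model of the 4 group means over the 12 arrays was fitted by limma 3.58.1 (R 4.3.3; 8 residual and 5.07 prior degrees of freedom), for 7 comparisons, with Benjamini-Hochberg adjustment over all genes and a threshold of 0.05. The number of arrays limits the precision. The fit was tested on simulated data. The transporters and gene lists were chosen with earlier results of these data known. From each list of other transporters, regulators, targets and sex-biased genes, the 4 genes with the smallest p in the averaged dexamethasone effect were named, with Hdac6 and, for the 2 transporters with the widest span of group means, the 3 genes of highest correlation. Promoter windows came from RefSeq. Alternatives were 2 filters, 3 scalings, another variance model, fits to the compared groups only, the replicate number as a block, the pancreas arrays left out or their marker mean as a covariate, the mean of probe sets, and each array left out.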

Additional observations from a re-analysis of the deposited data

How the results depend on the processing

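Of 11 other ways to process the data with all replicates or without the pancreas arrays, 10 kept the wild-type decrease of Slc22a7 past the threshold (-0.95 to -0.77 over all 11). The wild-type count of 2 transporters called became 1, Slc22a7 alone, with cyclic loess scaling (Slco2b1 -0.33, adjusted p = 0.0651), with the pancreas marker mean as a covariate (-0.33, adjusted p = 0.12) and with the replicate block (-0.36, adjusted p = 0.0552), and 0 without the 4 arrays with pancreas transcripts. The averaged count of 2 became 0 with cyclic loess (Abcc3 and Slco2b1 both at adjusted p = 0.0506), without those 4 arrays, and with the covariate (Abcc3 -0.29, adjusted p = 0.106; Slco2b1 -0.23, adjusted p = 0.108). The cause was not tested. Over all genes, leaving out those arrays, which also leaves fewer samples, took the counts called from 2064 to 559 for dexamethasone in wild type, from 3085 to 1695 on average, from 18 to 5 for genotype under vehicle, from 5 to 1 under dexamethasone, from 9 to 3 on average and from 0 to 1 for the interaction. With the covariate the genotype counts were 7 under vehicle and 2 under dexamethasone; with only the compared groups fitted, 9 and 3. Under dexamethasone 3 were also called with no filter and with the replicate block, and the averaged genotype count was 14 with the trended, robust variance model and 29 with the replicate block. Replicate numbers showed no clear pairing: deviations of same-numbered arrays correlated at -0.537 to 0.356 over 18 pairs of arrays, 3 of them above 0.1, and 1 of 12 arrays correlated best with its own number. These deviations include the pancreas transcripts, so whether a number marks a shared batch cannot be told from them. The replicate block changed no other call on the 9 transporters. Counts over the gene lists of other transporters, regulators and targets stayed close under 459 combinations of list, comparison and setting, fell under 38 and rose under 15. Median centring moved the share of higher calls for dexamethasone in wild type from 39.7% to 29.8%, for genotype under dexamethasone from 40% to 60% and for genotype on average from 33.3% to 45.5%, and shifted the median of all genes by at most 0.072 in size.

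Some changes that had not passed altered sign, none of them past the threshold. With median centring, Slco1b2 in wild type was -0.035, and the interactions of Abcb1a, Abcc2 and Slco1b2 were 0.039, 0.045 and 0.033. With quantile scaling, the genotype difference was 0.0086 for Slco1b2 under vehicle and -8e-05 for Slco2b1 under dexamethasone, the latter -0.0018 with cyclic loess, which gave Slco1b2 0.0091 in the knockout and 0.023 on average. Without the arrays with pancreas transcripts, the wild-type change was -0.33 for Slco1a1 and -0.093 for Slco1b2, the genotype difference of Slco1a1 was -0.075 under vehicle and -0.078 on average, and the interaction of Slco1b2 was 0.078. With the covariate, Slco1a1 and Slco1b2 were both -0.045 in wild type and the interaction of Abcc3 was -0.0041. With each array left out in turn, the ranges that crossed 0 were, for dexamethasone in wild type, Abcb1a -0.12 to 0.39, Slco1a1 -0.22 to 0.33, Slco1a4 -0.13 to 0.22 and Slco1b2 -0.14 to 0.094. In the knockout they were Slco1a4 -0.49 to 0.067, Slco1b2 -0.11 to 0.062 and Slc22a7 -0.045 to 0.34, and on average Slco1a1 -0.26 to 0.016, Slco1a4 -0.22 to 0.06 and Slco1b2 -0.081 to 0.039. For genotype under vehicle they were Abcc2 -0.074 to 0.012, Slco1b2 -0.16 to 0.068 and Slc22a7 -0.12 to 0.27, and under dexamethasone Abcc3 -0.2 to 0.038, Slco1a1 -0.22 to 0.094, Slco1b2 -0.14 to 0.037 and Slco2b1 -0.055 to 0.058. For genotype on average they were Abcc4 -0.11 to 0.02, Slco1a1 -0.031 to 0.25 and Slco1b2 -0.11 to 0.014, and for the interaction Abcb1a -0.21 to 0.29, Abcc2 -0.075 to 0.017, Abcc3 -0.11 to 0.13, Slco1a4 -0.54 to 0.014 and Slco1b2 -0.13 to 0.11. Over the same removals, transporters called ranged from 0 to 2 for dexamethasone in wild type, 0 to 3 on average and 0 to 1 for genotype under dexamethasone. All genes called ranged from 5 to 28 for genotype under vehicle, 1 to 37 under dexamethasone, 5 to 29 on average and 0 to 3 for the interaction.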

Other observations

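Genes that differ between male and female mouse liver, a feature of the Slco1a carriers as well, were described beside them. In the averaged dexamethasone effect, 7.29% of all genes were called higher and 9.94% lower. Of 10 male-biased genes, 1 rose and 5 fell with dexamethasone averaged over genotypes (1 and 3 without the arrays with pancreas transcripts). Cyp2u1 fell by 1.38 ± 0.11 (SE) on the log2 scale, Hsd3b5, a steroid dehydrogenase, by 0.97 ± 0.15 and Nudt7 by 0.41 ± 0.09, while Serpina4-ps1 rose by 2.01 ± 0.46 with a change of 3.36 ± 0.66 in wild type, which passed, and of 0.66 ± 0.66 in the knockout, which did not; no gene passed the interaction. Of 8 female-biased genes tested, 3 rose and 0 fell (3 and 0 without those arrays): Fmo2, a flavin monooxygenase, by 1.63 ± 0.18, Cyp17a1 by 1.00 ± 0.31 and Cyp2b9 by 0.60 ± 0.11. Cyp2b9 stood near the low-value limit, at 2.47 with vehicle and 3.07 with dexamethasone. Cyp3a44 changed by 0.11 ± 0.10 and did not pass. Slco1a1, itself male-biased, changed by -0.10 ± 0.17 and did not pass. All animals were male, so sex itself was not measured.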
